A study of Mus musculus with 34 samples.

Results

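Of the 54532 genes in the bulk RNA-seq count table, 31 were taken by gene symbol because they mark a subfield of the hippocampus or a region beside it. These are 7 markers of CA1, 6 of CA2, 4 of CA3, 9 of the dentate gyrus, 3 of the thalamus and 2 of the subiculum. All 31 had a row, and all 31 passed the filter on low counts that left 22018 genes for testing. RNA came from the dissected dorsal hippocampus of 8 male C57BL/6J mice aged 2 to 3 months, with no transgene in either group: 4 mice stayed in their homecage, and 4 were trained in spatial object recognition (SOR), a task in which a mouse learns where objects stand, and were euthanized 1 h later. Each mouse gave 1 library, and the other samples of the series (spatial, single-nucleus and chromatin data) were not used here.

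The pyramidal cells of CA1, CA2 and CA3 and the granule cells of the dentate gyrus differ in connections and in the genes they express, and a small set of transcripts is enough to tell them apart in sections. Granule cells send mossy fibers to CA3, CA3 projects to CA1, CA2 forms a narrow zone between these fields, and CA1 and the subiculum carry the output. In a dissected block, markers of a field follow how much of that field the block holds as well as how strongly its cells express them, and in these bulk libraries fewer cells of a type and less RNA per cell cannot be told apart. The markers of the thalamus, which lies below the hippocampus, and of the subiculum, at its border, report on the edges of the dissection.

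Libraries held between 51406011 and 81525977 counts. Of these, 7.92% (SOR replicate 1) to 13.2% (homecage replicate 1) fell on *Rn7s1* and *Rn7s2*, genes of the signal recognition particle RNA. Of the 6 region levels and the comparison lists, the markers of the choroid plexus, a tissue that lies against the hippocampus, differed most between libraries: *Ttr*, the transthyretin gene of that tissue, ranged from 4.04 CPM (counts per 1000000 of the scaled library size) in homecage replicate 2 to 3710 CPM in SOR replicate 1. The summed level of 7 choroid plexus markers was 26.2 to 1111 CPM in the homecage group and 43.4 to 4047 CPM in the SOR group. SOR replicate 1 and homecage replicate 2 were also the extremes of a list of meningeal fibroblast markers. In the whole table, 38 genes were called different between the groups.

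None of the 31 region markers was called different between SOR and homecage mice with edgeR's quasi-likelihood test, where a call needed a Benjamini-Hochberg adjusted p under 0.05 together with more than a 1.4-fold difference. Over all genes tested, 0.173% were called. The log2 fold changes of the markers ran from -0.28 for *Nts* to 0.30 for *Gpr161*, with 16 above 0 and 15 below 0. Their median was 0.0015, beside -0.02 over all genes. At an unadjusted p under 0.05, 4 of the 31 differed, which is 12.9%, beside 10.1% of all genes. In 3 members, or 9.68%, the 4 SOR values and the 4 homecage values did not overlap, and this held for 6.94% of all genes. For 27 of the 31 the 95% interval lay within a 1.4-fold change in either direction, and the intervals of *Dcn*, *Map3k15*, *Tcf7l2* and *Prkcd* reached past it.

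**Figure D1:**
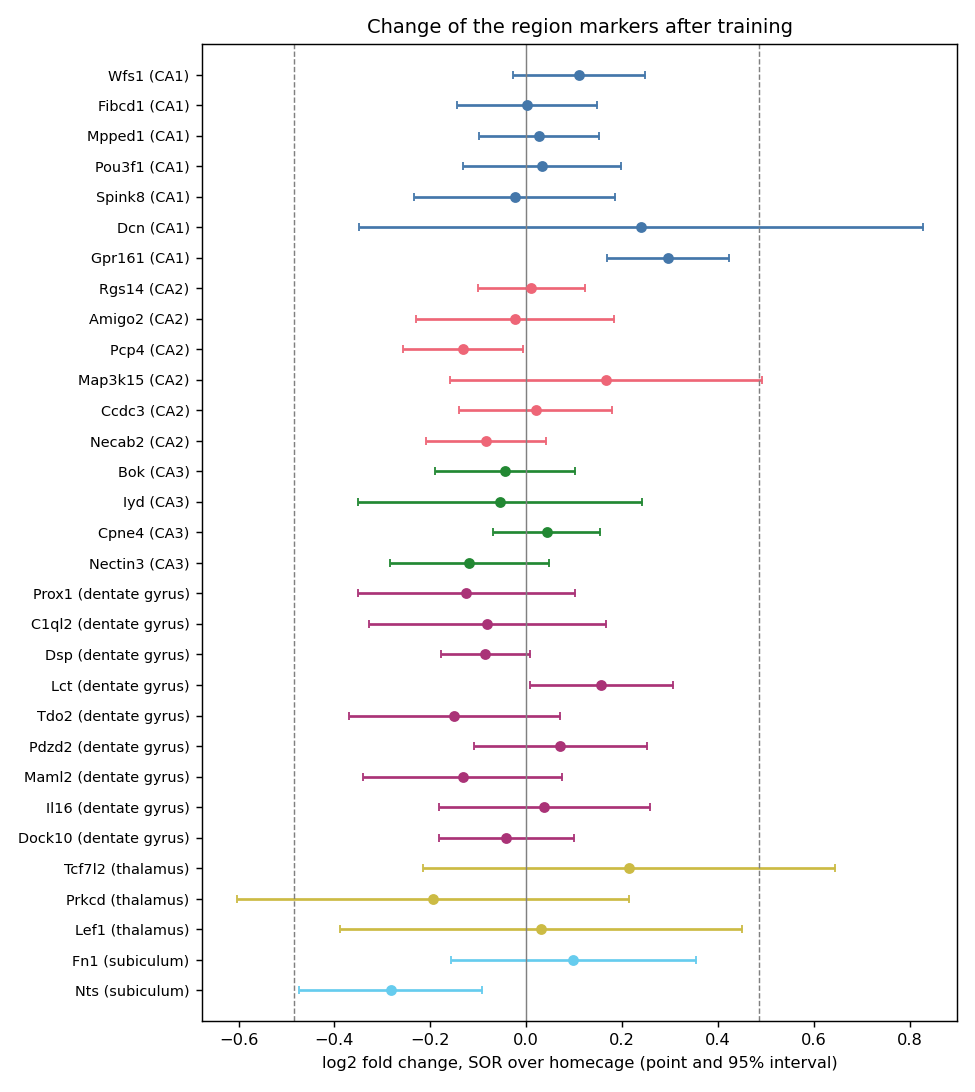
Log2 fold change of each marker, SOR over homecage (horizontal axis), with its 95% interval from edgeR. Colors mark the regions and dashed lines a 1.4-fold change. Most intervals cross 0, and those of *Gpr161*, *Lct*, *Pcp4* and *Nts* do not before adjustment over all genes.

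The mean level of each region differed little between the groups. A subfield level was computed for each mouse as the mean, over the markers of that region, of log2(CPM + 0.5) minus the mean of the gene over the 8 mice. On this log2 scale the CA1 level was -0.05 ± 0.12 (SD, n = 4) in homecage and 0.05 ± 0.10 in SOR mice, a difference of 0.10. Without homecage replicate 2, its lowest mouse, the difference was 0.051, and without SOR replicate 1, its highest, it was 0.063. The CA2 level differed by -0.01, the CA3 level by -0.04 and the dentate gyrus level by -0.04. The thalamus level differed by -0.01 (-0.077 without homecage replicate 2 and 0.085 without homecage replicate 1) and the subiculum level by -0.08 (-0.13 without homecage replicate 2 and -0.041 without SOR replicate 1). The dentate gyrus difference ranged from -0.084 to -0.00041 with 1 mouse left out. In each of the 6 regions the mice of both groups overlapped. The thalamus level varied most between mice, with 1.4-fold between the lowest and the highest mouse, and the CA2 level least, with 1.07-fold. These are spans of means over unlike numbers of markers. Single markers spanned more, from 1.13-fold (*Ccdc3*) to 1.62-fold (*Map3k15*) in CA2. In the thalamus they spanned from 1.74-fold (*Lef1*) to 2.03-fold (*Prkcd*).

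**Figure D2:**
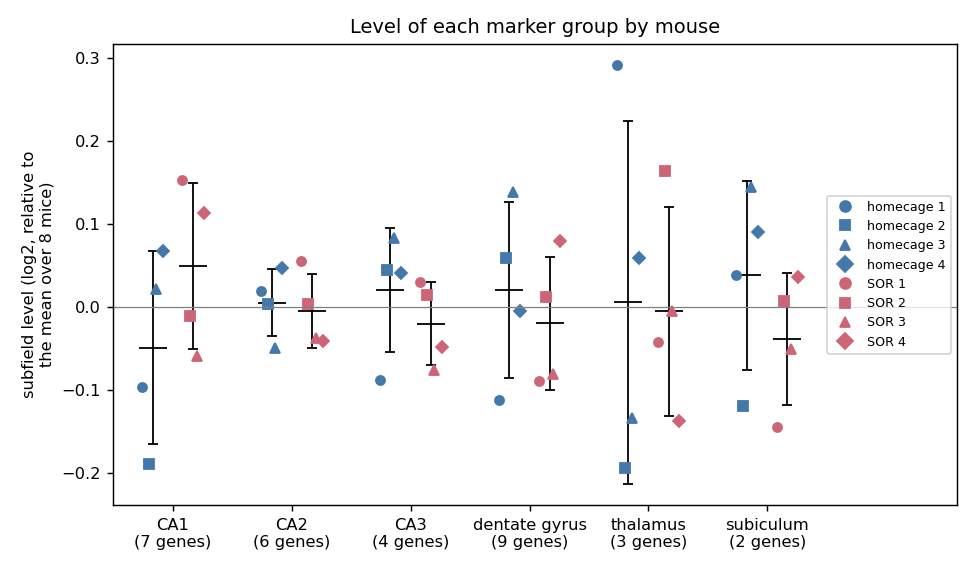
Subfield level (vertical axis, log2 relative to the mean over 8 mice) for each region and mouse. Horizontal dashes are group means and bars are SDs (n = 4). Both groups overlap in every region, and the thalamus markers spread most.

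In CA1, *Gpr161*, which encodes an orphan receptor of the primary cilium that restrains Hedgehog signalling, had the highest log2 fold change of the 31 markers, although it did not pass the adjusted test. It lies at chr1:165295789-165326745 on the plus strand of GRCm38. Its levels were 103, 104, 116 and 109 CPM in the homecage mice and 147, 130, 125 and 129 CPM in the SOR mice. All 4 SOR mice lay above all 4 homecage mice, and SOR replicate 1 was the highest. The log2 fold change was 0.30 (SE 0.0575, 95% interval 0.17 to 0.42) and the adjusted p from edgeR was 0.0779. An exact two-sided permutation test on the 8 values alone gave p = 0.0286, the smallest that 4 against 4 mice allow. Without SOR replicate 1 the log2 fold change was 0.24 (adjusted p = 0.0974 from edgeR), and without homecage replicate 2 it was 0.28 (adjusted p = 0.253). The adjusted p fell under 0.05 in 6 of 12 other fits with all mice and in 0 of 8 fits that left out a mouse, while the fold change stayed below 1.4 in all of them.

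The 250 bases before the RefSeq start of *Gpr161* (GRCm38.p6, chr1:165295516-165295765, plus strand), of *Pcp4* (chr16:96467356-96467605, plus strand) and the part of that window of *Nts* that lies outside the annotated gene (chr10:102490487-102490668, minus strand) are shown because these are the 3 markers whose groups did not overlap. RefSeq held an entry for 25 of the 31 markers. Capitals mark matches to 5 motifs of activity-regulated transcription factors.
Gpr161: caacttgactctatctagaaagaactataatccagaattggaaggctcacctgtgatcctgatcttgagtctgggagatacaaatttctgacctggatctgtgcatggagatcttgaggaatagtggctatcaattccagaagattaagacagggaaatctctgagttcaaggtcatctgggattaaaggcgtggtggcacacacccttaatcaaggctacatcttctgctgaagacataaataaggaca
Pcp4: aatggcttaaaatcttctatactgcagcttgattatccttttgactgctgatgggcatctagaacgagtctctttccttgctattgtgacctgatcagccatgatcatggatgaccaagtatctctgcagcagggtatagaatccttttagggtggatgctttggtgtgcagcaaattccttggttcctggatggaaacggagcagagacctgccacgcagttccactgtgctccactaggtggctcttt
Nts: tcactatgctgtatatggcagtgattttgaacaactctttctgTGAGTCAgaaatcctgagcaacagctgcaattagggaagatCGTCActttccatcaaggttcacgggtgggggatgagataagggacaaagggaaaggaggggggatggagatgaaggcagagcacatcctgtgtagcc

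The motifs were searched on both strands. They were the cyclic AMP response element TGACGTCA, its core TGACG (which lies within the full element), the AP-1 site TGANTCA, the NR4A site AAAGGTCA and the EGR site GCGTGGGCG. The window of *Nts* held an AP-1 site 207 to 201 bases before the start and a core, on the other strand, 166 to 162 bases before it. The windows of *Gpr161* and *Pcp4* held no match to these letters. Of 32851 windows of 250 bases before RefSeq starts, 6.749% held the AP-1 letters, 17.77% the core, 1.546% the full element, 1.336% the NR4A letters and 0.5358% the EGR letters. A match describes the letters only.

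The other CA1 markers gave smaller log2 fold changes. *Wfs1* encodes wolframin, a protein of the endoplasmic reticulum, and had 51.2, 52.2, 55.2 and 60.6 CPM in homecage and 55.1, 57.8, 62.2 and 61.8 CPM in SOR mice, with overlap between the groups and a log2 fold change of 0.11 (SE 0.062). *Fibcd1*, a receptor of the cell surface, had a log2 fold change of 0.0015 (SE 0.0659), with 83.3 to 93.0 CPM in homecage and 79.0 to 95.2 CPM in SOR mice. *Mpped1*, a metallophosphoesterase, ranged from 95.8 to 111 CPM in homecage and from 97.0 to 109 CPM in SOR mice. *Pou3f1*, a POU domain transcription factor, lay between 14.5 and 17.7 CPM over all mice, and *Spink8*, a protease inhibitor, between 10.1 and 12.9 CPM. For these last 4 markers no log2 fold change was more than 0.033 from 0.

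*Dcn* (chr10:97479609-97518143, plus strand) was the least even of the 31 markers. It encodes decorin, a proteoglycan of the extracellular matrix, which fibroblasts also express. Its levels were 14.6, 6.63, 14.1 and 13.99 CPM in homecage and 20.3, 13.2, 9.43 and 15.2 CPM in SOR mice. Homecage replicate 2 was the lowest and SOR replicate 1 the highest, 3.06-fold apart, and the groups overlapped. The SD within groups was 0.486 on the log2 scale, higher than in 98.2% of the genes tested, and the log2 fold change was 0.24 with a 95% interval from -0.35 to 0.83. Without SOR replicate 1 it was 0.031, without homecage replicate 2 it was 0.032, and without SOR replicate 3 it was 0.40.

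Markers of meningeal fibroblasts and of the choroid plexus shared their lowest and highest library with *Dcn*. Of the fibroblast list, 6 of 6 genes were tested and 0 were called, their summed level was 15.2 to 40.4 CPM in homecage and 29.5 to 81.2 CPM in SOR mice, and all 6 log2 fold changes were above 0, with a median of 0.29. Its lowest library was homecage replicate 2 and its highest SOR replicate 1, as for *Dcn*. None of its genes was at 0: *Col1a1*, *Col1a2* and *Col3a1*, collagens that define these cells, ranged from 0.926 to 2.66, from 2.93 to 9.04 and from 1.53 to 7.52 CPM. The choroid plexus list had the same lowest and highest library, with 7 of 7 log2 fold changes above 0, a median of 1.26 and 0 genes called. The other libraries did not keep the order of *Dcn*: SOR replicate 4 was second highest for *Dcn*, at 15.2 CPM, but had 20.8 CPM of *Ttr*, and SOR replicate 3 was second lowest, at 9.43 CPM, but had 722 CPM of *Ttr*. The mean log2 level of the choroid plexus list differed by 1.13 between the groups, by 0.47 without homecage replicate 2 and by 0.39 without SOR replicate 1. That of the fibroblast list differed by 0.32, by 0.077 without homecage replicate 2 and by 0.10 without SOR replicate 1, where leaving out these libraries was chosen after their values were seen. Endothelial markers, 6 of 6 tested, stayed between 101 and 125 CPM in sum over all mice. The part of these cells in the *Dcn* values was not tested. With *Dcn* left out of the CA1 level, a choice made after its values were seen, the difference between groups was 0.07 and the mice spanned 1.18-fold instead of 1.27-fold.

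**Figure D3:**
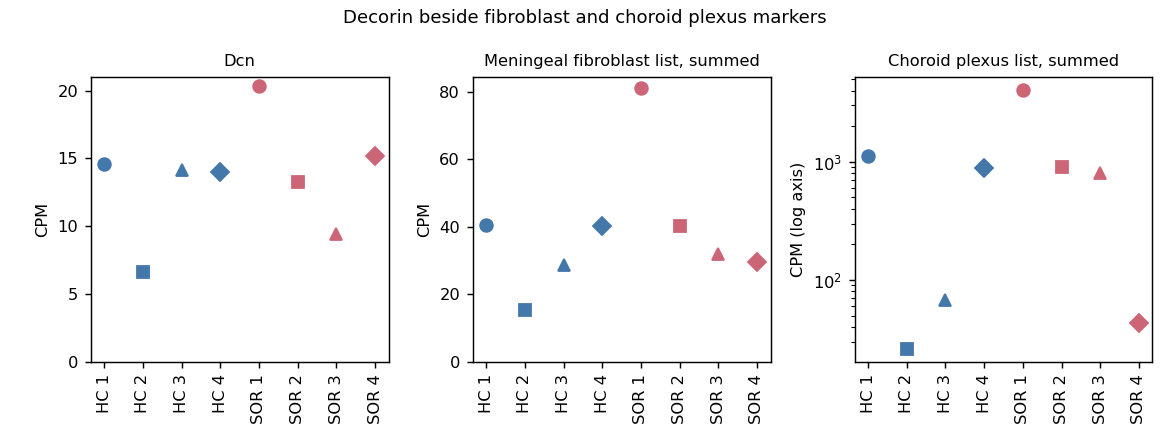
CPM of *Dcn* (left), of the summed meningeal fibroblast list (middle) and of the summed choroid plexus list (right, log axis) in each mouse, HC for homecage. Homecage replicate 2 is the lowest and SOR replicate 1 the highest in each panel.

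The 6 CA2 markers differed by at most 0.17 on the log2 scale. *Pcp4*, which encodes the small calmodulin-binding protein PEP-19, lies at chr16:96467606-96525793 on the plus strand and shares 243 exonic bases with *Igsf5* on the same strand, so that counts of the 2 genes may not be cleanly split. Its levels were 59.3, 51.8, 53.6 and 50.7 CPM in homecage and 46.2, 49.6, 50.6 and 50.3 CPM in SOR mice. The groups did not overlap, but the highest SOR mouse and the lowest homecage mouse were nearly level. The log2 fold change was -0.13 (SE 0.0564), with an adjusted p from edgeR of 0.473. The exact permutation test gave p = 0.0286, which groups that do not overlap always give. Without homecage replicate 1, the highest mouse, the log2 fold change was -0.081, and over all mice left out in turn it was -0.16 to -0.081.

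*Rgs14*, a signalling scaffold that limits plasticity in CA2 neurons, had 91.2, 94.6, 96.1 and 100.2 CPM in homecage and 101, 95.6, 88.2 and 100.2 CPM in SOR mice. The SOR range enclosed the homecage range, and the log2 fold change was 0.011 (SE 0.0505). *Necab2*, a neuronal calcium-binding protein, had 35.9 to 41.7 CPM in homecage and 34.4 to 37.97 CPM in SOR mice. *Amigo2*, a cell adhesion protein, lay between 15.9 and 20.6 CPM over all mice. *Ccdc3*, which encodes a secreted coiled-coil protein, was among the most even markers at 10.8 to 12.2 CPM. Of its 2670 exonic bases 1845 overlap *Gm26776* on the other strand, so its counts may include reads of that gene. *Map3k15*, a kinase of the MAP kinase cascade, was the lowest of the CA2 markers at 2.14 to 3.47 CPM, and its log2 fold change of 0.17 had an SE of 0.147.

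In CA3 the log2 fold changes lay between -0.12 and 0.04. *Cpne4*, a copine that binds membranes in the presence of calcium, had 91.2, 102, 97.9 and 105 CPM in homecage and 105, 103, 96.0 and 104 CPM in SOR mice, with a log2 fold change of 0.04 (SE 0.0503). *Nectin3*, an adhesion protein of synapses, had 39.7, 44.6, 42.8 and 43.7 CPM in homecage and 43.0, 42.6, 37.7 and 34.1 CPM in SOR mice. SOR replicates 3 and 4 lay below all homecage mice and the other SOR mice did not, and the log2 fold change was -0.12 (SE 0.0752). *Bok*, a relative of BCL2, ranged from 28.9 to 34.4 CPM, and *Iyd*, an iodotyrosine deiodinase, from 4.49 to 6.87 CPM with both extremes in the homecage group.

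In the dentate gyrus, 6 of 9 markers had a log2 fold change below 0 and none was called. *Prox1* (chr1:190118035-190170714, minus strand), the transcription factor that sets granule cell identity, had 97.3, 108, 118 and 106 CPM in homecage and 78.6, 110, 94.0 and 111 CPM in SOR mice. SOR replicate 1 was the lowest, and SOR replicates 2 and 4 lay within the homecage range. *C1ql2*, a secreted organizer of mossy fiber synapses, had 53.7, 57.5, 62.7 and 59.4 CPM in homecage and 45.9, 58.8, 47.9 and 68.1 CPM in SOR mice, so that the SOR group held both the lowest and the highest mouse. The log2 fold change of *Prox1* was -0.12 (SE 0.102) and that of *C1ql2* was -0.08 (SE 0.112). Without SOR replicate 1 they were -0.03 and -0.0034, and without SOR replicate 4 they were -0.19 and -0.20.

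*Lct*, the lactase gene, which serves as a granule cell marker in the hippocampus, had 69.2, 74.5, 87.6 and 79.6 CPM in homecage and 86.2, 91.6, 82.5 and 86.4 CPM in SOR mice. The homecage group was more spread and its replicate 3 lay among the SOR mice. The log2 fold change was 0.16 (SE 0.0672), with an adjusted p from edgeR of 0.474 and p = 0.114 in the exact permutation test.

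*Dsp*, which encodes desmoplakin of cell junctions, varied least of the 31 markers, with an SD within groups of 0.0504 on the log2 scale. Its levels were 71.9, 80.5, 76.4 and 77.8 CPM in homecage and 73.0, 71.3, 73.5 and 71.4 CPM in SOR mice. Homecage replicate 1 lay among the SOR mice and the other homecage mice lay above them, for a log2 fold change of -0.09 (SE 0.0418, adjusted p = 0.534 from edgeR). *Dock10*, a guanine nucleotide exchange factor, ranged from 220.1 to 267 CPM. *Tdo2*, a tryptophan dioxygenase, ranged from 6.54 to 8.48 CPM. *Maml2*, a coactivator of Notch, ranged from 25.6 to 37.5 CPM, *Il16*, which encodes a cytokine precursor, from 47.5 to 62.3 CPM, and *Pdzd2*, a PDZ domain protein, from 39.8 to 53.1 CPM. Both groups overlapped in all 5.

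The thalamus markers were scarce or uneven. *Prkcd* (chr14:30595354-30626210, minus strand), which encodes protein kinase C delta, had 42.0, 31.1, 27.2 and 33.2 CPM in homecage and 20.7, 33.5, 37.8 and 24.6 CPM in SOR mice. Homecage replicate 1 was the highest and SOR replicate 1 the lowest, 2.03-fold apart, and the groups overlapped. Its SD within groups was 0.333 on the log2 scale, above 95% of the genes tested, and the log2 fold change was -0.19 (95% interval -0.60 to 0.21). Without SOR replicate 1 it was -0.06, without homecage replicate 1 it was also -0.06, and without SOR replicate 3 it was -0.35.

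*Tcf7l2* and *Lef1*, transcription factors of Wnt signalling, were the lowest of all 31 markers per length, at 0.216 ± 0.0450 and 0.277 ± 0.0542 RPKM (CPM per kilobase of exon; SD, n = 8). *Tcf7l2* had 2.14, 1.42, 1.52 and 1.93 CPM in homecage and 1.98, 2.52, 1.47 and 2.18 CPM in SOR mice. *Lef1* had 2.98, 1.85, 2.39 and 2.43 CPM in homecage and 3.23, 2.41, 2.29 and 1.89 CPM in SOR mice. Neither separated the groups, and their log2 fold changes were 0.22 (SE 0.194) and 0.03 (SE 0.19). With 1 mouse left out, that of *Tcf7l2* ranged from 0.098 without SOR replicate 2 to 0.34 without SOR replicate 3, and was 0.13 without homecage replicate 2. That of *Lef1* ranged from -0.13 without SOR replicate 1 to 0.15 without homecage replicate 1. *Tcf7l2* is also expressed by newly formed oligodendrocytes, whose list of 5 genes gave 1 call: *Enpp6* fell by 0.68 on the log2 scale (adjusted p = 0.0142 from edgeR). The *Enpp6* levels were 13.9, 15.9, 13.7 and 14.3 CPM in homecage and 7.76, 9.82, 8.72 and 9.76 CPM in SOR mice. The other 4 genes of that list (*Bcas1*, *Itpr2*, *Bmp4* and *Rras2*) had log2 fold changes from -0.13 to 0.04 with overlapping groups, and the median of the list was -0.03. *Lef1* is also expressed by endothelial cells, whose summed markers are given above. Of these 6 markers 0 were called and 4 had a log2 fold change above 0, and *Cldn5*, a tight junction gene, was the 1 whose groups did not overlap, at -0.30 (SE 0.0785, adjusted p = 0.199 from edgeR). The part of either cell type in the values of both genes was not tested.

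Other genes of the thalamus and of the habenula beside it also overlapped between the groups. Of 10 further thalamus genes 9 were tested, 3 with a log2 fold change above 0 and 6 below 0, and 0 were called. *Gbx2*, a thalamic transcription factor, had at most 0.0727 CPM and was 0 in 4 libraries. *Zic1* ranged from 11.8 CPM in SOR replicate 4 to 41.9 CPM in homecage replicate 1, which was also the highest mouse for *Prkcd*. Homecage replicate 1 was not the highest for most of the list: *Ntng1* and *Ramp3* were highest in homecage replicate 3, *Plekhg1* in SOR replicate 2, *Rora* in SOR replicate 3, *Rgs16* in SOR replicate 4 and *Synpo2* in SOR replicate 1. *Slc17a6*, the vesicular glutamate transporter of thalamic neurons, ranged from 27.8 CPM in SOR replicate 1 to 40.1 CPM in homecage replicate 1. The mean log2 level of the 9 tested genes was also highest in homecage replicate 1 (0.14) and lowest in SOR replicate 1 (-0.10). *Prkcd* had the same extremes. Of 5 genes of the medial habenula 3 were tested and 0 were called. *Pou4f1*, which defines habenula neurons, had at most 0.0154 CPM.

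Over all 8 mice, no correlation between the 3 thalamus markers passed a test. In the homecage group replicate 1 was the highest mouse for all 3, while in the SOR group replicate 1 was the lowest for *Prkcd* and the highest for *Lef1*, and 4 mice a group are too few to give r within groups. Over the 8 mice, 4 pairs of neighbouring-region markers were compared with exact permutation tests, two-sided and adjusted over the 4. For *Tcf7l2* and *Prkcd*, Pearson's r was -0.03 (exact p = 0.943, adjusted 0.943) and Spearman's rho 0 (exact p = 1). For *Tcf7l2* and *Lef1*, r was 0.32 (exact p = 0.422, adjusted 0.844) and rho 0.40 (exact p = 0.327). For *Prkcd* and *Lef1*, r was -0.03 (exact p = 0.941, adjusted 0.943) and rho 0.07 (exact p = 0.882). The adjusted p of all 4 rho values was 1. Without the 2 mice farthest from the median of the first gene, r became 0.29, -0.07 and 0.47 in these 3 pairs. *Prkcd* and *Lef1* depended most on 1 library: without SOR replicate 1, which was lowest for the first and highest for the second, r was 0.71 (exact permutation p = 0.0643).

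The subiculum was represented by *Fn1* and *Nts*. *Nts* (chr10:102481756-102490486, minus strand) encodes the precursor of the peptides neurotensin and neuromedin N. Its levels were 7.61, 6.71, 6.73 and 6.69 CPM in homecage and 5.73, 5.80, 5.48 and 5.79 CPM in SOR mice, with 295 to 533 counts per library. All SOR mice lay below all homecage mice, and homecage replicate 1 stood above the other 3. The log2 fold change was -0.28 (SE 0.0863, 95% interval -0.47 to -0.09), with an adjusted p from edgeR of 0.288. The exact permutation test gave p = 0.0286, as it must where the groups do not overlap. Without homecage replicate 1 the log2 fold change was -0.23, and no fit brought the adjusted p under 0.05.

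*Fn1*, which encodes fibronectin of the extracellular matrix and is also expressed by endothelial cells and fibroblasts, had 31.3, 28.2, 40.8 and 38.04 CPM in homecage and 31.7, 38.7, 37.6 and 40.3 CPM in SOR mice. The SOR values lay within the homecage range, and the log2 fold change was 0.10 (SE 0.116). It was 0.013 without homecage replicate 2, its lowest mouse, and 0.19 without homecage replicate 3, its highest. No correlation of *Fn1* and *Nts* over the 8 mice passed a test (r = -0.36, exact p = 0.362, adjusted 0.844, and rho = -0.10, exact p = 0.84). Without the 2 mice farthest from the median of *Fn1*, r was 0.38.

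**Figure D4:**
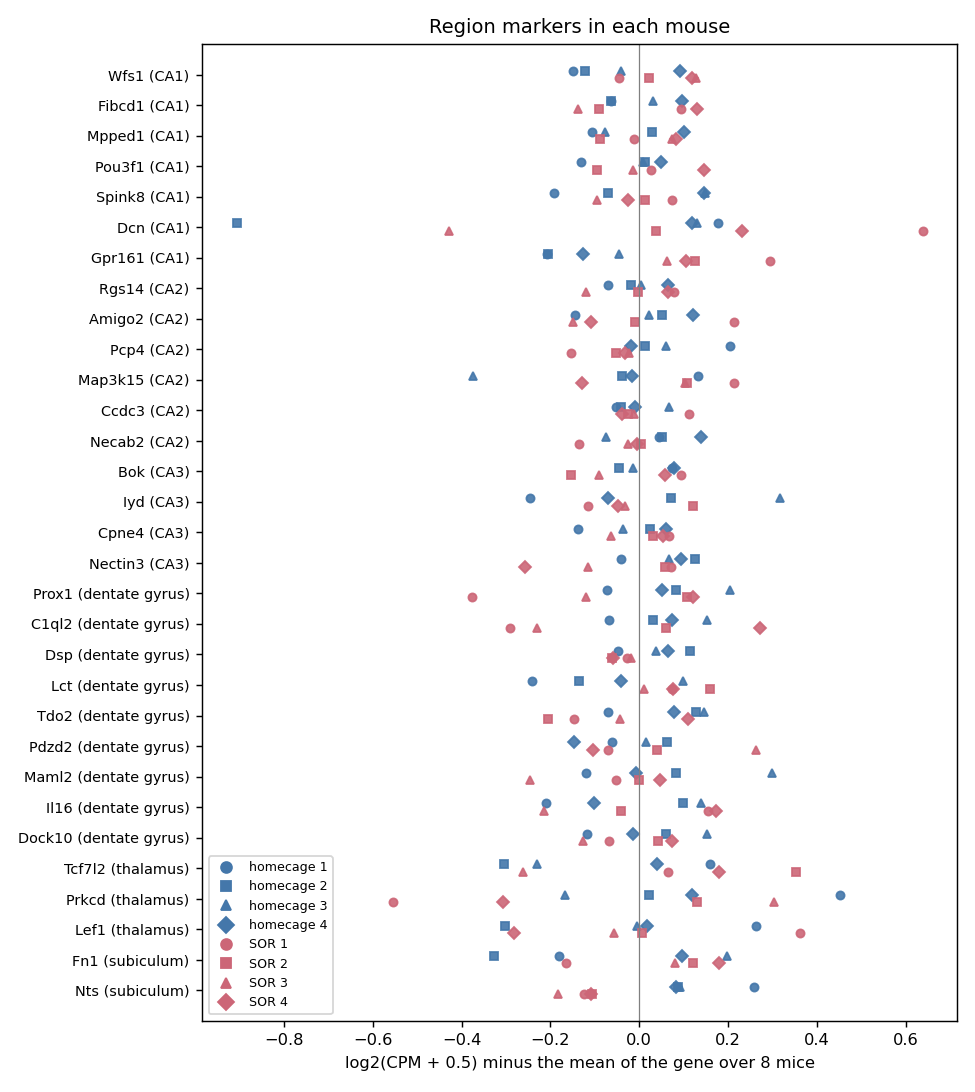
Each marker in each mouse, as log2(CPM + 0.5) minus the mean of the gene over 8 mice (horizontal axis). Blue marks homecage and red SOR mice, and shapes mark the replicate number. *Dcn* and *Prkcd* spread most, and *Gpr161*, *Pcp4* and *Nts* are the 3 genes whose groups do not overlap.

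Per length of exon, the markers spanned from 0.216 RPKM for *Tcf7l2* to 50.2 ± 3.69 RPKM (SD, n = 8) for *Pcp4*. After *Pcp4* came *C1ql2* (28.4 RPKM), *Mpped1* (24.1 RPKM), *Rgs14* (22.6 RPKM) and *Fibcd1* (18.3 RPKM). Of the 30 pairs of neighbours in this order, 25 had ranges over the 8 mice that overlapped. The ranges lay apart at 5 steps: *Pcp4* to *C1ql2*, *Rgs14* to *Fibcd1*, *Prox1* to *Dsp*, *Tdo2* to *Map3k15* and *Map3k15* to *Lef1*. All mice share the exonic length of a gene, so these ranges do not show an error in that length. Every marker of a hippocampal field or of the subiculum stood above *Tcf7l2* and *Lef1*, while *Prkcd*, at 5.64 RPKM, lay among them. These values are shares of the counts of the whole dissected block, so a marker of a small field can stand below its level in the cells themselves.

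**Figure D5:**
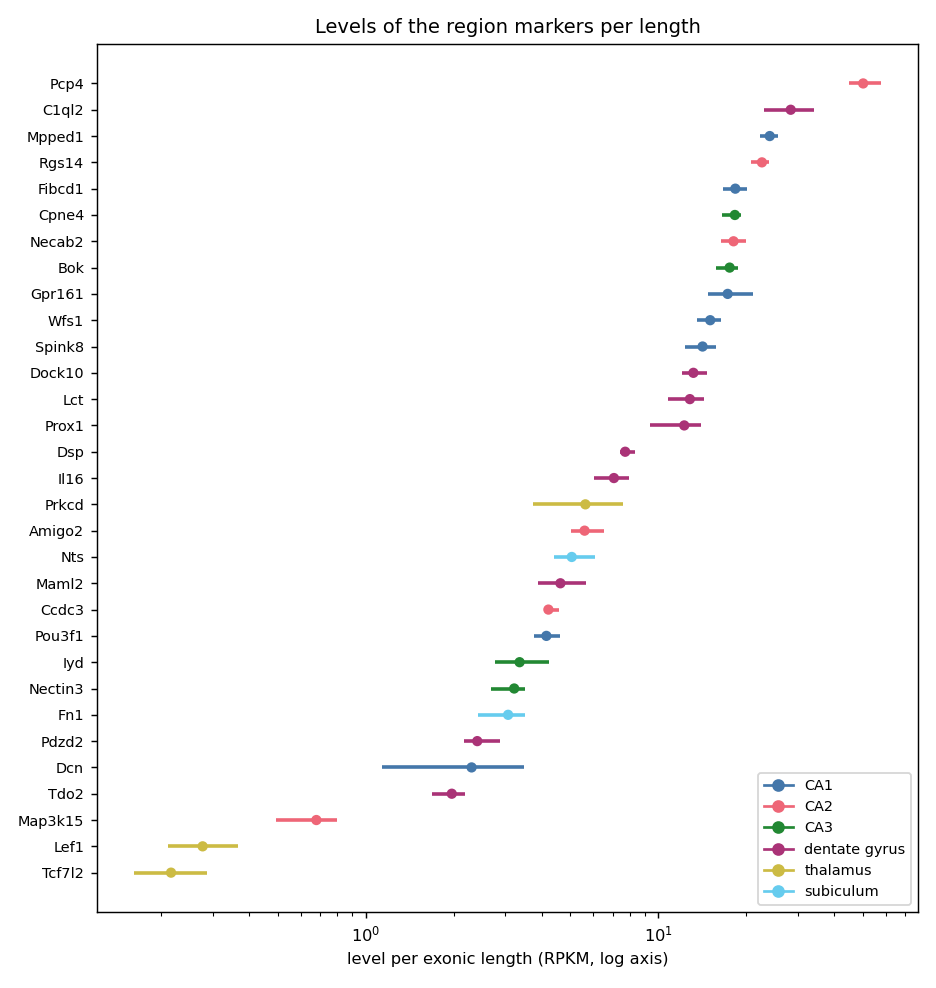
Level of each marker in RPKM (log axis), as the mean (point) and the range (line) over 8 mice, colored by region. *Pcp4* is highest and *Tcf7l2* lowest, and most neighbours overlap.

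Between mice of a group the markers were about as even as other genes. The median SD within groups was 0.119 on the log2 scale, beside 0.136 over all genes tested and 0.114 over the 16352 genes that averaged 1 CPM or more. The spread exceeded the SD that counting alone gives in 30 of the 31 markers, the exception being *Nts*. From the lowest to the highest mouse, 25 markers differed by at most 1.5-fold, and *Dcn*, *Prkcd*, *Tcf7l2*, *Lef1*, *Map3k15* and *Iyd* by more.

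No library was low or high for all markers. Homecage replicate 1 was the lowest mouse for 9 markers and the highest for 3, and SOR replicate 1 was the highest for 9 and the lowest for 5. Within the dentate gyrus and within CA1, markers mostly deviated from their group means together, and within CA2 they did not. Of 82 pairs within a region, taken over all regions, 60 had a positive r of these deviations, with a median of 0.28. Of 383 pairs between regions, 207 had a positive r, with a median of 0.04. The median was 0.44 within the dentate gyrus, where 30 of 36 pairs were positive, and 0.41 within CA1 (17 of 21). It was 0.22 within CA3 (4 of 6), 0.12 within the thalamus (2 of 3) and -0.05 within CA2 (7 of 15). The single subiculum pair had an r of -0.25 for the deviations, beside -0.36 for the values themselves. Between regions the medians ran from -0.34 for dentate gyrus and thalamus markers, with 4 of 27 pairs positive, to 0.28 for CA3 and dentate gyrus markers, with 25 of 36. The latter was above the median within CA3. These are descriptions over 8 libraries that all pairs share.

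The tested genes outside the 31 that averaged 1 CPM or more and whose pattern over the 8 mice was most like the CA1 level were *Eif3i* (r = 0.97), *Zfp9* (0.97), *Rhoj* (0.95), *Cyp1b1* (0.95) and *Serping1* (0.95). The gene nearest to the dentate gyrus level was *Nop14* (r = 0.99), to the CA2 level *Spef2* (0.97), to the CA3 level *Tmeff1* (0.98), to the thalamus level *Gm37983* (0.95) and to the subiculum level *Lrrk1* (0.95). Each is the highest of many values of r over 8 points and is given as a description.

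Further markers of the same regions gave no call. Of 3 further CA1 genes 1 had a log2 fold change above 0, of 4 further CA2 genes 0, of 3 further CA3 genes 0 and of 5 further dentate gyrus genes 3. The 4 genes of hilar mossy cells, neurons of the dentate gyrus, all had values below 0, with a median of -0.33 and 0 called, and their summed level was 16.6 to 36.2 CPM in homecage and 10.1 to 22.5 CPM in SOR mice. Their extremes were homecage replicate 1 and SOR replicate 1. Of 4 genes of newborn dentate neurons 3 were below 0, all with overlapping groups, and the median of the list was -0.27. The 1 above 0, *Sox11*, had groups that did not overlap, at 29.0 to 33.0 CPM in homecage and 33.9 to 39.4 CPM in SOR mice. Its log2 fold change was 0.20 (SE 0.063, adjusted p = 0.304 from edgeR). The extremes of this list were also homecage replicate 1 and SOR replicate 1. Lists for tissue outside the dorsal hippocampus also gave no call. Of 5 neocortex genes 2 were above 0, of 4 tested striatum genes 1, and of 3 ventral hippocampus genes 2. The striatum gene *Rgs9* had groups that did not overlap, at 8.75 to 9.67 CPM in homecage and 7.62 to 8.68 CPM in SOR mice. Its log2 fold change was -0.16 (SE 0.082, adjusted p = 0.559 from edgeR). The ventral hippocampus list was lowest in homecage replicate 2 and highest in SOR replicate 1, as the choroid plexus list was. The part of choroid plexus in its values was not tested. Of 7 genes of inhibitory neurons 2 were above 0, and all 8 of mature oligodendrocytes were below 0, with a median of -0.19 and 0 called. *Opalin* was the 1 of these 8 whose groups did not overlap, at -0.50 (SE 0.12, adjusted p = 0.164 from edgeR). The study, with its own fit, reports *Opalin* as lower after training in bulk RNA-seq. Over all genes tested, 43.8% had a log2 fold change above 0, and in 6.94% the groups did not overlap.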

How the data were processed

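Bulk RNA-seq of the dorsal hippocampus from 4 homecage and 4 SOR mice was used. The study's methods name a stranded kit for total RNA that removes ribosomal RNA, whereas polyA RNA stands in the labels. According to the study, reads were aligned with STAR and counted with featureCounts in bcbio-nextgen, against mm10 (GRCm38). The deposited values are estimated counts per gene, summarized with tximport by the authors and not normalized, and 52.6% of them are not whole numbers. The quantifier behind that summary and the strand setting are not given in the sources used here. Of the 31 markers, 11 share exonic bases with another gene, and for antisense partners reads may not be told apart.

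Symbols, positions and exonic lengths came from GENCODE M21, which matched 54495 of 54532 genes. Counts were rounded and filtered with filterByExpr (minimum count 10), and libraries were scaled with upper-quartile factors. The groups were compared by edgeR 4.0.16 in R 4.3.3 (quasi-likelihood F test), p was adjusted after Benjamini and Hochberg over 22018 genes, and calls needed an adjusted p under 0.05 together with more than a 1.4-fold difference. SEs were derived from the F statistic. Single markers were compared with an exact permutation test over 70 assignments. A pseudocount of 0.5 CPM was used on the log2 scale. RPKM divides CPM by exonic length, all exons of a gene merged. The authors removed unwanted variation with RUVs and do not state the number of factors, so none was used in the values reported. The labels do not say that mice came from separate litters or batches, and p-values measure the spread between these libraries.

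The markers, the comparison lists and the tests were chosen with earlier results of these data known. The text names all 31 markers. Of the comparison lists, genes were named for thalamus, habenula, choroid plexus, fibroblasts, endothelium and newly formed oligodendrocytes where they stand beside a result. For each region the genes most like its level were named. *Sox11*, *Rgs9* and *Opalin* were also named, a choice made after their values were seen. Of 4 ventral hippocampus genes 3 were found by symbol. Alternatives were scaling by TMM, by RLE or by library size, no filter, the likelihood ratio test, DESeq2 1.42.0 and limma-voom (limma 3.58.1). Others were 1 to 3 RUVs factors, a block for the replicate number, unrounded counts, and each mouse left out in turn. The RUVs factors came from a reimplementation with all genes as controls, and their fits used the likelihood ratio test. Fits were tested on simulated data. Other steps used Python 3.11.15, pandas 2.3.3, numpy 2.4.6 and scipy 1.17.1. The spatial, single-nucleus and chromatin samples were not analysed here.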

Additional observations from a re-analysis of the deposited data

Results flagged for a closer look

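Of 74 groups of 4 mice examined (each marker and each region level in each group), 2 held a mouse whose gap to its nearest neighbour, divided by the range of the group, was above Dixon's 95% critical value. Chance marks about 1 in 20 such groups. *Dcn* was at 6.63 CPM in homecage replicate 2, while the other 3 homecage mice lay between 13.99 and 14.6 CPM, a ratio of 0.923. *Nts* was at 7.61 CPM in homecage replicate 1, while the other 3 lay between 6.69 and 6.73 CPM, a ratio of 0.958.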

How the results depend on the processing

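The count of markers called was 0 in each of the 12 alternatives with all mice and the 8 fits without 1 mouse. The count over all genes, 38, became 105 with the likelihood ratio test and 112 with DESeq2. With 1, 2 and 3 RUVs factors, in fits that also used the likelihood ratio test, it was 134, 191 and 203. Without 1 mouse it was 22 to 38, with the low values without homecage replicate 2 (22) and homecage replicate 4 (25). Replicate numbers did not pair the mice (r of deviations -0.084 to 0.073 for the same number and -0.200 to 0.194 for other numbers). The replicate block gave 30 calls over all genes, none of them a marker, and an adjusted p of 0.239 for *Gpr161*. For *Gpr161* the adjusted p fell to 0.0409 without the filter, 0.00222 with the likelihood ratio test alone and 7.44e-04 with DESeq2. With the likelihood ratio test and 1, 2 and 3 RUVs factors it was 0.00243, 5.73e-05 and 1.55e-06. The cause of these shifts was not tested.

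Of 620 alternative log2 fold changes of markers, 580 kept their direction and their side of the threshold and 34 changed sign, 9 of these with all mice. These 9 all lay near 0: *Amigo2* 0.00019 with RLE factors and 0.00027 with DESeq2, *Fibcd1* -0.0034 with limma-voom, -0.016 and -0.017 with 2 and 3 RUVs factors and -0.0010 with the replicate block, and *Lef1* -0.0090, -0.029 and -0.029 with 1, 2 and 3 RUVs factors. Without 1 mouse, log2 fold changes that changed sign ranged from -0.046 to 0.046 for *Fibcd1*, -0.0021 to 0.064 for *Mpped1*, -0.017 to 0.070 for *Pou3f1*, -0.087 to 0.026 for *Spink8*, -0.015 to 0.051 for *Rgs14*, -0.11 to 0.024 for *Amigo2*, -0.018 to 0.047 for *Ccdc3*, -0.14 to 0.064 for *Iyd*, -0.013 to 0.11 for *Pdzd2*, -0.021 to 0.11 for *Il16*, -0.084 to 0.0048 for *Dock10* and -0.13 to 0.15 for *Lef1*. The r of *Tcf7l2* and *Prkcd* ranged from -0.22 to 0.16 and that of *Prkcd* and *Lef1* from -0.38 to 0.71. Every region level moved by less than the SD within groups. With 85 counts in a library for its scarcest value, *Tcf7l2*, counting error limits the thalamus transcription factors most.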
